A study of Mus musculus with 6 samples.

Results

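The Wnt ligands, their Frizzled receptors and the secreted Sfrp, Rspo and Dkk proteins that tune them were compared in lung pericytes. Mutant mice were homozygous and controls heterozygous for floxed Yap1 and Wwtr1, the genes of the transcriptional coactivators YAP1 and TAZ. All protein-coding genes whose GENCODE M21 symbol is Wnt, Fzd, Sfrp, Rspo or Dkk followed by a digit were taken, whatever their level. The rule found 41 genes among the 21603 in the files: 19 Wnt, 10 Fzd, 4 Sfrp, 4 Rspo and 4 Dkk genes. At postnatal day 8, Wnt11 was the most abundant Wnt transcript in controls and fell in the mutant to 37.6% of the control mean. The less abundant Wnt4 fell to 55.2%. Among the antagonists the changes went in opposite directions, with Sfrp2 falling to 57.4% and Sfrp1 rising to 334% of the control mean. The calls of Wnt4 and Sfrp2 were lost in most fits that left out a sample. The transcripts of the Frizzled receptors and of Dkk3 did not pass the test.

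Wnt proteins are secreted, lipid-modified ligands that bind Frizzled receptors. Together with the co-receptors Lrp5 and Lrp6 they stabilise beta-catenin, which acts with TCF/LEF factors on target genes, whereas other ligands, Wnt5a and Wnt11 among them, are known mainly for beta-catenin-independent signals that run through Ror receptors, small GTPases and calcium. Sfrp proteins carry a Frizzled-like domain and can sequester ligands, Dkk1 and Dkk2 bind the Lrp co-receptors, and R-spondins bind Lgr receptors and spare Frizzleds from removal at the membrane. In the lung, mesenchymal Wnt2 and Wnt2b are required for the lung field to form, Wnt5a shapes the distal airways, and ligands from stromal cells help to keep alveolar type 2 cells in their stem cell state.

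Translating RNA was obtained with the RiboTag method, in which Cre switches on an HA-tagged form of RPL22, a component of the large ribosomal subunit, and an antibody to HA then pulls ribosomes of recombined cells and their RNA out of whole-lung lysate. Lungs came from 3 control and 3 Yap1,Wwtr1 iPCKO mice (inducible pericyte knockout) on the C57BL/6 background. Both groups carried Pdgfrb(BAC)-CreERT2, a transgene active in PDGFRb-expressing cells, and the tagged Rpl22 allele, and both received tamoxifen in the first days after birth. Controls were heterozygous for floxed Yap1 and for floxed Wwtr1 (labelled Yap1+/-;Wwtr1+/-), and mutants were homozygous for both (Yap1-/-;Wwtr1-/-), so by genotype recombination would leave 1 working copy of each gene in control pericytes and no working copy in mutant ones. In bulk RNA of this kind, fewer cells of a type and less RNA per cell cannot be told apart.

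The labels were checked on the deleted genes first. Yap1 fell from 12.4 ± 0.859 to 5.61 ± 0.314 RPKM (read counts scaled to exon length in kb and to library size in M reads, given as mean ± SD, n = 3 in every group of the text), whereas Wwtr1 stood at 60.4 ± 9.48 and 62.0 ± 1.63 RPKM. A single value per gene cannot separate reads of a recombined exon from the rest of the transcript. Pdgfrb, the receptor that defines the Cre line, had 1533 ± 151 and 1337 ± 131 RPKM and overlapped between the groups. Of the pericyte markers Cspg4 and Notch3, the former rose from 81.8 ± 5.28 to 170 ± 12.1 RPKM (limma, adjusted p = 0.000330) and the latter fell from 313 ± 32.4 to 163 ± 8.16 RPKM (limma, adjusted p = 0.00112). The endothelial cadherin gene Cdh5 had 32.9 ± 1.46 and 34.2 ± 0.679 RPKM, and the epithelial Epcam 1.56 ± 0.104 and 1.71 ± 0.183 RPKM. Summed levels of the epithelial lists were nevertheless higher in every mutant, at 522 to 576 RPKM in controls and 650 to 711 RPKM in mutants for 11 alveolar genes, and at 112 to 181 RPKM and 243 to 266 RPKM for 6 airway genes. The summed level of 10 neutrophil markers rose from 87.1 to 129 RPKM in controls to 449, 1989 and 4949 RPKM in iPCKO 1, 2 and 3, with 6 of the 10 genes passing the test and none listed at 0. That of 10 leukocyte markers went from 58.9 to 82.5 RPKM in controls to 151, 202 and 270 RPKM, with 8 of the 10 passing, and that of 8 platelet markers from 12.7 to 14.5 RPKM to 33.7, 57.1 and 78.9 RPKM. The part of these cells in the differences described here was not tested. The steps that whole reads leave in the values imply denominators of 17.4 to 34.7 M reads in controls and 14.3 to 39.6 M reads in mutants.

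Of the 41 genes, 16 reached 1 RPKM in all 6 samples and 20 in at least 3 samples. The latter 20 were tested: 8 Wnt, 8 Fzd and 2 Sfrp genes, Rspo1 and Dkk3. A further 4 reached 1 RPKM in some but too few samples, namely Wnt2b, Wnt7a, Sfrp4 and Rspo4, and 17 in no sample. The order of the levels within each class is drawn for all samples in the plot of levels by gene. Fzd1 and Dkk3 exceeded every ligand in every sample, and no R-spondin was above 1.39 RPKM.

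**Figure D1:**
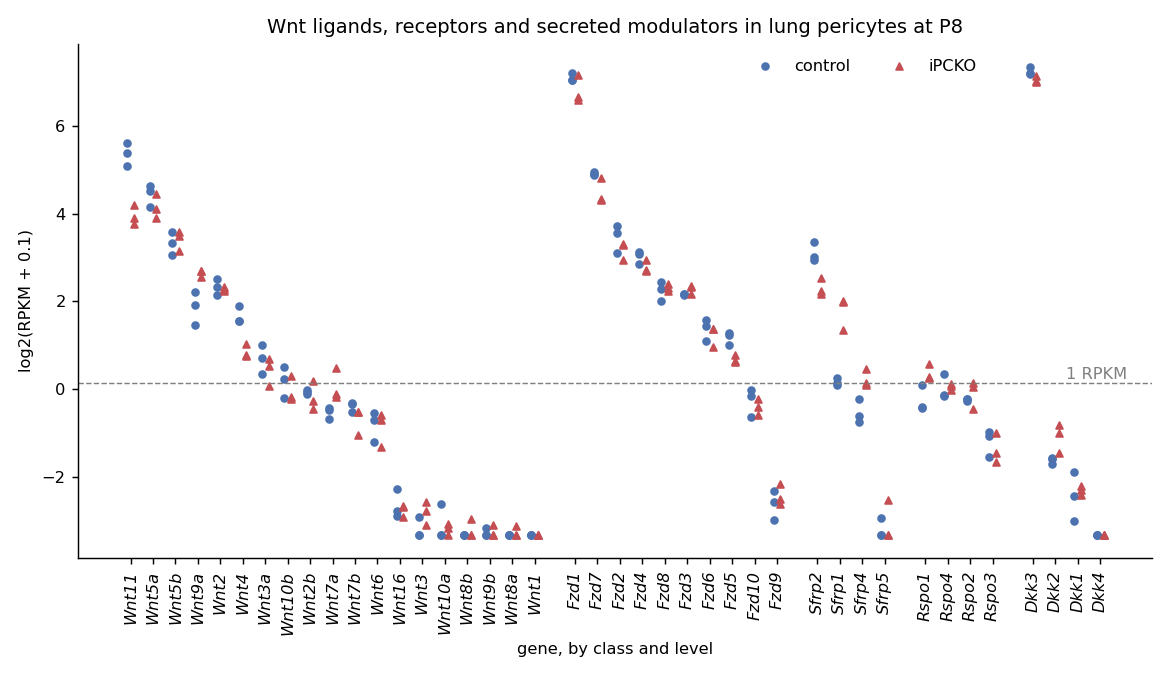
Levels of all 41 genes in each sample, as log2(RPKM + 0.1) on the vertical axis, with genes on the horizontal axis grouped by class and ordered by mean level. Circles are the 3 controls, triangles the 3 iPCKO samples, and the dashed line marks 1 RPKM. Fzd1 and Dkk3 stand highest, and Wnt1 and Dkk4 lie at 0 RPKM in all 6 samples. Groups do not overlap in Wnt11, Wnt4, Sfrp2 and Sfrp1, which passed the test. They do not overlap either in Wnt9a, Fzd7, Fzd5, Rspo1, Dkk3, Wnt7a, Sfrp4 and Dkk2. The same holds for 35.5% of all genes tested.

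The sequences ahead of RefSeq starts of the 3 genes that fell are given first. The reduced transcripts share a direction, and YAP1 and TAZ reach DNA through TEAD factors. Shown are the 250 bases before the RefSeq start of each gene on the plus strand of GRCm38.p6, at chr7:98834862-98835111 for the first of the Wnt11 starts, chr4:137277385-137277634 for Wnt4 and chr3:83766071-83766320 for Sfrp2. The GENCODE gene of Wnt4 starts at 137277489, inside the window, so part of the Wnt4 sequence lies within the annotated gene. Capitals mark letters of the TCF/LEF core.
Wnt11: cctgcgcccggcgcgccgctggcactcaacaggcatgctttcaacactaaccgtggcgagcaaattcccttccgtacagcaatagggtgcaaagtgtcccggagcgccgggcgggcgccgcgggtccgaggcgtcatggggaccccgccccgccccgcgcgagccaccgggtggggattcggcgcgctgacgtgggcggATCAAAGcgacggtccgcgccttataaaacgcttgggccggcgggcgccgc
Wnt4: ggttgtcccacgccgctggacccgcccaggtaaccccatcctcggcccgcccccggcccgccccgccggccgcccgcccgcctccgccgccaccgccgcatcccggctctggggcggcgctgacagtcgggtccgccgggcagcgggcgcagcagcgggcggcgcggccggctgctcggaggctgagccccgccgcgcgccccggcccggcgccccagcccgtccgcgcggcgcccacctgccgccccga
Sfrp2: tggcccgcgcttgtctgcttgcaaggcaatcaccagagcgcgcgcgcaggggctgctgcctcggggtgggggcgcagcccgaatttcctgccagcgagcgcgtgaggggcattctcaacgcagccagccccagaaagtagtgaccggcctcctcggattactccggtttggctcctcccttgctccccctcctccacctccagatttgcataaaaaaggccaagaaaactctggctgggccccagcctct
The TCF/LEF core was searched as CTTTGAT and its reverse complement ATCAAAG, and the TEAD core as GGAATG and CATTCC, in 300-base windows that run from 250 bases before to 50 bases after each start. In Wnt11 the letters ATCAAAG began 51 bases before the start, and the window of the other Wnt11 start held neither core. Wnt4 and Sfrp2 held no match either. Of the 27 genes with an entry, Wnt11 and Wnt5b held the TCF/LEF core, which was present in 3.73% of all 32851 promoters, and Wnt5b alone held the TEAD core, present in 14.7%. The promoters of the other 14 genes, Sfrp1 among them, were not analysed here. Of the 250 bases printed, 85.2% were G or C for Wnt4, 70.8% for Wnt11 and 63.6% for Sfrp2. A match of so few letters is a description of the window. Sequence farther from a start was not searched, so a missing match does not speak to TEAD sites elsewhere. The TEAD site that the study tested for Angpt1 lies far upstream of such a window.

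Wnt11, known from convergent extension and kidney branching (chromosome 7, 98835112 to 98855195, plus strand), was measured at 48.6, 41.5 and 34.1 RPKM in controls 1, 2 and 3 and at 18.4, 14.8 and 13.6 RPKM in iPCKO 1, 2 and 3. Every mutant lung lay below every control, and the values rested on 702 to 4295 reads per sample. The difference on the log2(RPKM + 0.1) scale, on which all fold changes here are given, was -1.40 (SE 0.15, limma with Benjamini-Hochberg adjustment over 12034 genes, adjusted p = 0.000656). The interval of the difference ran from -1.75 to -1.05 at 95% confidence. It also passed with any of the 6 samples removed, with differences of -1.53 to -1.28.

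Wnt4, a ligand of kidney and mammary development (chromosome 4, 137277489 to 137299726, plus strand), had 3.63, 2.83 and 2.81 RPKM in the controls and 1.6, 1.58 and 1.94 RPKM in the mutants. Control and mutant lungs did not overlap, and 116 to 409 reads per sample stood behind the values. The log2 difference was -0.82 (SE 0.15, limma, adjusted p = 0.00816). This adjusted p lay close to the threshold of 0.01, and with any single sample left out it was between 0.0120 and 0.0359, past the threshold in none of the 6 fits. The direction was the same in each of them, from -0.91 to -0.70.

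Wnt9a went the other way without passing. It was at 4.56, 3.67 and 2.63 RPKM in controls and at 5.8, 6.34 and 6.36 RPKM in mutants, so that all mutant values were higher, but the controls differed among themselves by more than the mutants did. The log2 difference was 0.79 (SE 0.18, interval 0.38 to 1.19, limma, adjusted p = 0.0201). It passed without control 1, at an adjusted p of 0.00838 in limma. The neighbouring Wnt3a, on the other strand of chromosome 11 and 16.2 kb away, was at 1.53 ± 0.365 and 1.27 ± 0.286 RPKM (log2 difference -0.25, limma, adjusted p = 0.518).

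**Figure D2:**
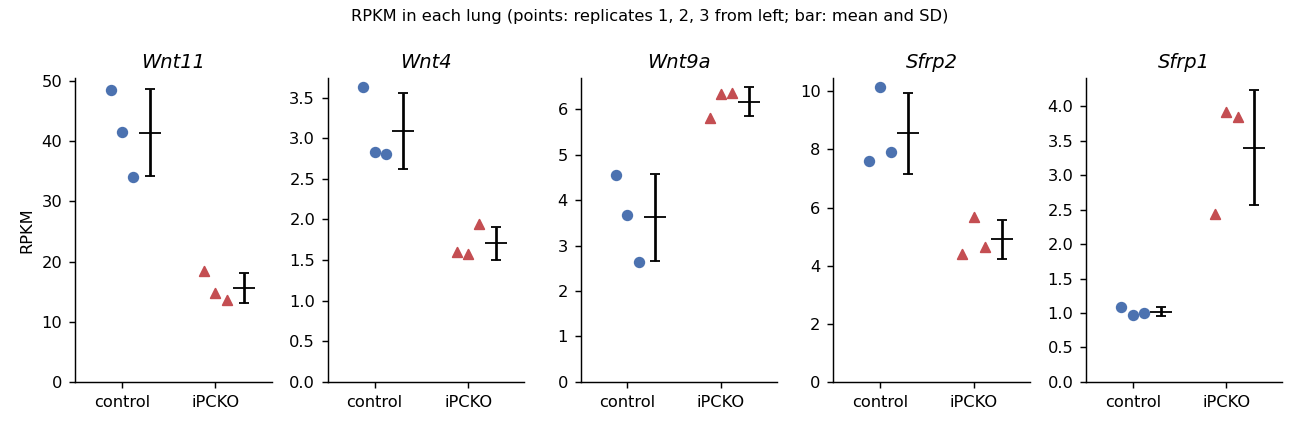
RPKM of Wnt11, Wnt4, Wnt9a, Sfrp2 and Sfrp1 on the vertical axis of each panel, with control and iPCKO lungs on the horizontal axis. Points are replicates 1, 2 and 3 from left to right and the bars give the mean and SD. In all 5 panels the groups do not overlap, which also holds for 35.5% of all genes tested. Wnt9a did not pass the adjusted threshold.

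The ligands next in abundance overlapped between the groups. Wnt5a, the non-canonical ligand of distal lung growth, had 22.8, 24.5 and 17.7 RPKM in controls and 21.8, 17.1 and 14.9 RPKM in mutants (log2 difference -0.28, interval -0.65 to 0.10, limma, adjusted p = 0.298). Wnt5b, its close paralog, had 11.8, 9.87 and 8.16 RPKM in controls and 11.1, 11.9 and 8.77 RPKM in mutants (log2 difference 0.09, interval -0.26 to 0.45, limma, adjusted p = 0.737). In both genes the mutant values lay within or next to the control range, and both intervals included 0. Wnt2 was at 4.92 ± 0.625 and 4.77 ± 0.136 RPKM, with an interval of -0.30 to 0.22 on the log2 scale. Wnt10b, near the detection limit at 1.05 ± 0.272 and 0.888 ± 0.213 RPKM, was not called either.

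Taking the 19 ligand genes as a class, their summed RPKM was 102, 91.4 and 76.1 in controls and 69.0, 61.0 and 55.3 in mutants. Without Wnt11 the sums were 53.6, 49.9 and 42.0 in controls against 50.6, 46.2 and 41.7 in mutants, so the gap between the group means shrank from 89.9 against 61.7 to 48.5 against 46.2 RPKM. Wnt11 made up 45.9% ± 1.43 of the ligand sum in controls and 25.1% ± 1.28 in mutants. The share of Wnt9a went from 3.98% ± 0.50 to 10.1% ± 1.57 and that of Wnt5b from 11.0% ± 0.440 to 17.1% ± 2.04, whereas Wnt5a stood at 24.1% ± 2.39 and 28.9% ± 2.46. Wnt11 was more abundant than Wnt5a in each control, with ratios of 2.13, 1.69 and 1.92, and less abundant in each mutant, with ratios of 0.841, 0.866 and 0.911. These ratios are between RPKM values and so do not depend on the depth of a library. Shares are bound to each other, and a fall of Wnt11 alone raises the shares of the others.

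**Figure D3:**
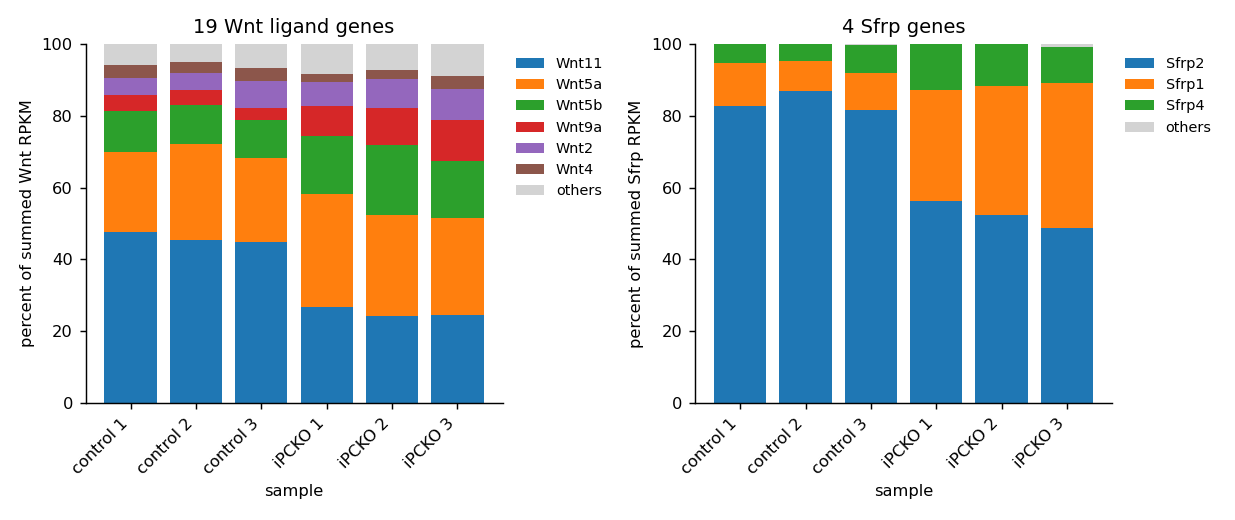
Percent of the summed RPKM of the 19 Wnt genes (left) and of the 4 Sfrp genes (right) on the vertical axes, with the 6 samples on the horizontal axes. Wnt11 takes 44.8% to 47.5% of the ligand sum in controls and 24.3% to 26.6% in iPCKO samples, and Sfrp1 8.31% to 11.9% of the Sfrp sum in controls and 31.0% to 40.5% in iPCKO samples.

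Of the 11 ligand genes that were not tested, 4 had group means between 0.456 and 0.964 RPKM. Wnt7a was among them and is named because its groups did not overlap, a choice made after the values were seen. It had 0.640, 0.524 and 0.618 RPKM in controls and 1.30, 0.779 and 0.818 RPKM in mutants, on 29 to 98 reads per sample. Wnt2b, Wnt7b and Wnt6 overlapped. The other 7 ligands, Wnt16, Wnt3, Wnt10a, Wnt8b, Wnt9b, Wnt8a and Wnt1, were at or near 0, and Wnt1 was listed at 0 in all 6 samples. Some of these genes lie side by side in the genome. Wnt10b was detected while Wnt1, 11.7 kb away on chromosome 15, was not, and Wnt6 exceeded Wnt10a, 6.2 kb away on chromosome 1. Wnt9b and Wnt3, 24.3 kb apart on chromosome 11, were both near 0.

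On the receptor side, Fzd1 was the dominant transcript. It had 148, 133 and 132 RPKM in controls and 142, 96.5 and 101 RPKM in mutants and made up 68.4% ± 1.27 and 67.9% ± 2.57 of the Frizzled sum. In Fzd1 the first mutant lung lay among the controls while the other two were lower, and the log2 difference of -0.31 had an interval of -0.65 to 0.04 (limma, adjusted p = 0.219). Fzd7, a near relative of Fzd1 and Fzd2 and a receptor in stem cells of several epithelia, was at 30.6, 29.7 and 29.5 RPKM in controls and 28.2, 20.1 and 19.8 RPKM in mutants. Here iPCKO 1 was again the highest mutant but lay just below every control, so the groups did not overlap. The log2 difference was -0.42 (SE 0.14, interval -0.73 to -0.11, limma, adjusted p = 0.0750). Without iPCKO 1, Fzd7 passed at a difference of -0.58 (limma, adjusted p = 0.00318). In the same samples the neutrophil marker sum was lowest in iPCKO 1 among the mutants, and its part in this spread was not tested.

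Fzd2 had 12.95, 11.7 and 8.43 RPKM in controls and 9.66, 9.82 and 7.62 RPKM in mutants. Fzd4, the receptor that Norrin uses in vascular growth, had 7.06, 8.39 and 8.58 RPKM in controls and 6.37, 7.53 and 6.45 RPKM in mutants. Both overlapped between groups, with log2 differences of -0.27 and -0.24 that missed the threshold (limma, adjusted p = 0.324 and 0.203). Among the other 4 tested receptors, Fzd8, Fzd3, Fzd6 and Fzd5, group means lay between 1.5 and 4.88 RPKM. Fzd5, named after its values were seen, was the only one of these 4 whose groups did not overlap, at 2.17 ± 0.224 and 1.5 ± 0.104 RPKM (log2 difference -0.50, interval -0.82 to -0.17, limma, adjusted p = 0.0487). Fzd10 and Fzd9 were not tested. The fitted difference was below 0 in 6 of the 8 tested Frizzleds, Fzd8 and Fzd3 being the others, and none of the 8 passed. The closely related Fzd1, Fzd2 and Fzd7 together carried 88.8% ± 1.01 of the Frizzled sum in controls and 87.1% ± 1.99 in mutants.

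The Sfrp genes changed in opposite directions. Sfrp1 (chromosome 8, 23411502 to 23449632, plus strand), which encodes a soluble Wnt-binding antagonist, had 1.09, 0.971 and 0.995 RPKM in controls and 2.43, 3.92 and 3.85 RPKM in mutants. Controls were tightly grouped at the detection limit, and every mutant lung lay well above them. The log2 difference was 1.62 (SE 0.20, interval 1.17 to 2.06, limma, adjusted p = 0.00108), on 74 to 151 reads in controls and 225 to 679 in mutants. It entered the test through the 3 mutants and control 1, and it passed with any of the 6 samples removed. Within the mutants Sfrp1 was lowest in iPCKO 1, as was the neutrophil marker sum, whose part in the Sfrp1 values was not tested.

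Sfrp2, its relative (chromosome 3, 83766321 to 83774316, plus strand), had 7.59, 10.1 and 7.91 RPKM in controls and 4.41, 5.68 and 4.63 RPKM in mutants. No mutant reached the lowest control, and the log2 difference was -0.79 (SE 0.14, interval -1.11 to -0.46, limma, adjusted p = 0.00734). With a sample left out its adjusted p was between 0.00991 and 0.0286, and it stayed past the threshold in 1 of the 6 fits. The direction held, at -0.89 to -0.66. Sfrp2 exceeded Sfrp1 by ratios of 6.96, 10.5 and 7.95 in controls and 1.81, 1.45 and 1.20 in mutants. The summed RPKM of the class overlapped between the groups, at 10.2 ± 1.32 in controls and 9.41 ± 1.52 in mutants.

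Sfrp4 reached 1 RPKM in a single sample and was not tested, and it is named, like Dkk2 below, after its values were seen. It had 0.491, 0.555 and 0.755 RPKM in controls and 0.995, 1.28 and 0.959 RPKM in mutants, without overlap, on 34 to 178 reads. Sfrp5 was near 0, with 2 reads in each of 2 samples.

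All 4 R-spondin genes were low. Rspo1 had 0.969, 0.651 and 0.640 RPKM in controls and 1.39, 1.11 and 1.09 RPKM in mutants. The groups did not overlap, but the log2 difference of 0.61 (SE 0.22, interval 0.12 to 1.11) did not pass (limma, adjusted p = 0.0970). It was tested only because the 3 mutant samples exceeded 1 RPKM. Rspo4, Rspo2 and Rspo3 had group means between 0.294 and 0.939 RPKM and overlapped.

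Among the Dkk genes, Dkk3 accounted for 99.8% of the class sum in controls and 99.6% in mutants. Dkk3, a divergent family member that is not a typical Lrp-binding inhibitor, had 161, 146 and 148 RPKM in controls and 141, 128 and 130 RPKM in mutants. Every mutant lay below every control, though by little, and the log2 difference was -0.19 (SE 0.10, limma, adjusted p = 0.220). The Lrp-binding antagonists were scarce. Dkk2 had 0.206, 0.233 and 0.234 RPKM in controls and 0.396, 0.464 and 0.266 RPKM in mutants, on 14 to 68 reads, Dkk1 had 0.0913 and 0.102 RPKM as group means, and Dkk4 was listed at 0 throughout.

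Counted over the 20 tested genes, 1 rose (5%, against 4.11% of all 12034 genes tested) and 3 fell (15%, against 2.68%). The 4 genes that passed in either direction were 20% of those tested, against 6.79% of all genes. Groups did not overlap in 9 of the 20 genes (45%), 6 of them lower and 3 higher in mutants, and in 35.5% of all genes tested, so such a lack of overlap is common in these samples. Of the 3 higher genes, Rspo1 was tested only through the mutants, so that the filter fixed its lack of overlap. Sfrp1 was tested through the mutants and control 1. The fitted difference was below 0 in 14 of the 20, with a median of -0.22, against a median of -9.72e-05 over all genes tested. The median size of the difference, whatever its sign, was 0.27 for the members and 0.17 for all genes.

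**Figure D4:**
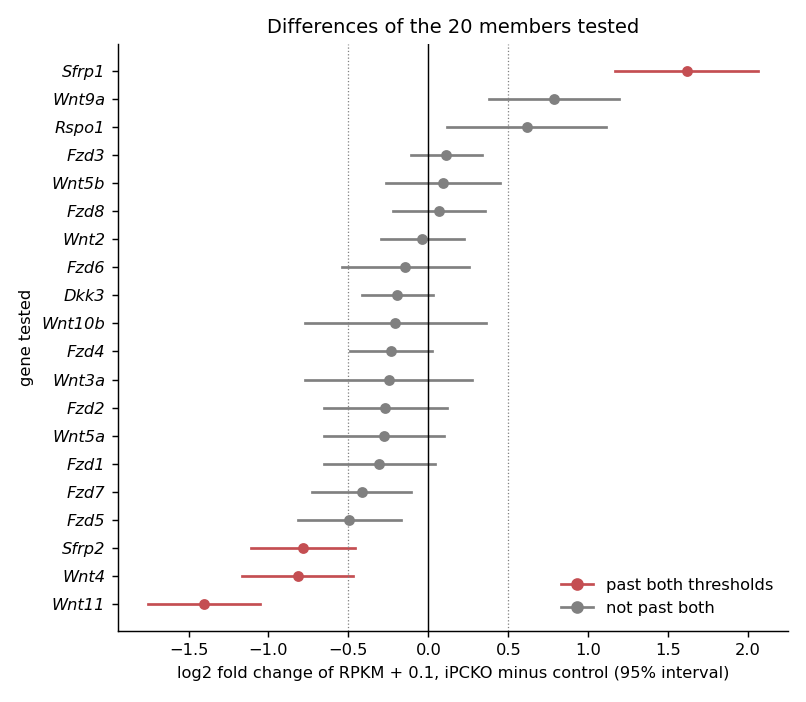
Log2 fold changes of RPKM + 0.1 (iPCKO minus control, horizontal axis) of the 20 tested genes, ordered by value on the vertical axis, with 95% intervals from limma. Dotted lines mark differences of 0.5 in either direction. Wnt11, Wnt4, Sfrp2 and Sfrp1, in red, are past both thresholds, and the 3 genes at the right end are Rspo1, Wnt9a and Sfrp1.

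The rest of the pathway was described from 6 lists of textbook components, 80 genes in all. Of these 73 were tested, of which 6 rose and 2 fell, 11.0% in all against the 6.79% of all genes. In the list of 4 genes for secretion and processing, 1 passed (25%, against 6.79% of all genes). Notum, a secreted enzyme that removes the lipid from Wnt proteins and so inactivates them, rose from 3.32 ± 0.841 to 8.68 ± 1.57 RPKM (log2 difference 1.37, limma, adjusted p = 0.00191). Wls, the carrier that takes ligands to the cell surface and the most abundant gene of this list, was at 49.3 ± 4.77 and 49.5 ± 3.15 RPKM. Among 7 tested genes of the 9 other antagonists, 2 passed (28.6%, against 6.79% of all genes). The ligand-binding Wif1 rose from 3.83 ± 0.860 to 12.6 ± 2.21 RPKM (log2 difference 1.71, limma, adjusted p = 0.000525). Frzb, an Sfrp-related antagonist, rose from 0.247 ± 0.0493 to 1.58 ± 0.377 RPKM (log2 difference 2.26, limma, adjusted p = 0.000713). But it entered the test, the count of 6 and the count of 2 here only through the 3 mutants, in which it was above 1 RPKM. Igfbp4, the highest of this list, was at 72.4 ± 12.3 and 67.8 ± 2.37 RPKM.

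Of 12 tested co-receptors and alternative receptors, 2 rose (16.7%, against 4.11% of all genes). Ror2, the tyrosine kinase receptor for Wnt5a, went from 9.19 ± 1.11 to 17.5 ± 1.08 RPKM (log2 difference 0.93, limma, adjusted p = 0.000812). Lgr6, an R-spondin receptor that is also on the myofibroblast marker list, went from 8.00 ± 1.78 to 13.5 ± 0.177 RPKM (log2 difference 0.77, limma, adjusted p = 0.00898). The most abundant gene of this list, Ptk7, was at 121 ± 8.31 and 132 ± 8.46 RPKM.

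None of 23 tested genes of the beta-catenin machinery passed, where 6.79% of all genes did, the most abundant being Ctnnb1 itself at 130 ± 6.19 and 127 ± 7.81 RPKM (log2 difference -0.04, interval -0.26 to 0.18). Of 13 tested feedback genes and others often read as beta-catenin targets, 2 rose and 1 fell (23.1% in all, against 6.79% of all genes). Ccnd1, which encodes cyclin D1, rose from 16.1 ± 1.17 to 37.3 ± 1.05 RPKM (log2 difference 1.20, limma, adjusted p = 8.09e-05), and Notum, which is on this list too, rose as given above. Nkd2, an intracellular inhibitor that binds Dishevelled, fell from 7.17 ± 0.896 to 3.82 ± 0.233 RPKM (log2 difference -0.88, limma, adjusted p = 0.00162). The highest gene of the list was Tnfrsf19, at 63.3 ± 1.57 and 53.0 ± 5.54 RPKM (limma, adjusted p = 0.116). The genes of this list that passed went in both directions, and the median over the list was -0.06. Of 20 tested genes of planar polarity and calcium signalling, 1 passed (5%, against 6.79% of all genes). Daam2, a formin that binds Dishevelled and the most abundant of them, fell from 50.6 ± 3.18 to 34.2 ± 4.17 RPKM (log2 difference -0.57, limma, adjusted p = 0.00891).

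**Figure D5:**
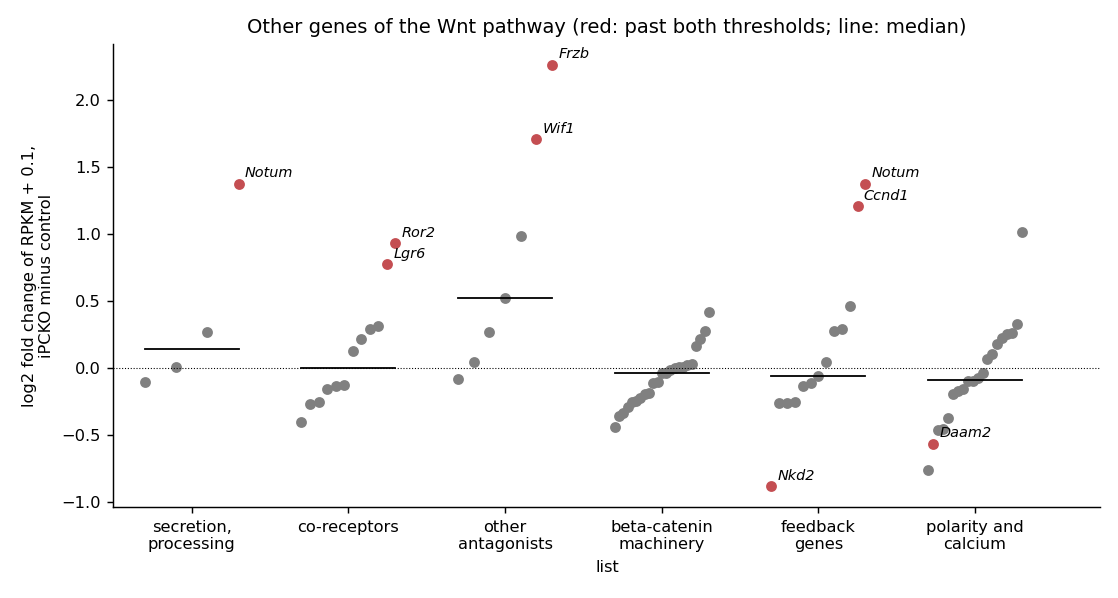
Log2 fold changes of RPKM + 0.1 (iPCKO minus control, vertical axis) of the tested genes of the 6 pathway lists (horizontal axis), with a line at the median of each list. Red points are past both thresholds and named, and Notum appears in both of its lists. The medians are 0.52 for the other antagonists, 0.14 for secretion and processing, and between -0.09 and 0.00 for the others. That of the other antagonists includes Frzb, which was tested only through the mutants.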

How the data were processed

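RNA bound to HA-tagged ribosomes was sequenced from 3 control and 3 iPCKO lungs, grouped by the sample labels. The authors mapped reads to mm10 with TopHat, counted them with HTSeq 0.6.1, and deposited RPKM per gene, so depth and exon length are already divided out and the exon length used is not given in the sources used here. Symbols and coordinates (1-based, GRCm38) came from GENCODE M21, and 21452 of the 21603 identifiers matched. Because the deposited values are RPKM, not counts, the design's test was limma 3.58.1 (R 4.3.3) on log2(RPKM + 0.1) with an intensity trend, for the 12034 genes that reached 1 RPKM in 3 or more samples, which understates changes of low genes. A gene was called at a Benjamini-Hochberg adjusted p under 0.01 where its log2 fold change also exceeded 0.5 in size, the thresholds of the study. P-values measure the spread between 3 lungs per group. With 3 against 3 lungs an exact permutation test cannot go below p = 0.1, so none was used.

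Reads behind a value were recovered from RPKM steps. They were whole within 0.01 reads in all 6 samples for 76.9% of 12019 tested genes and for 35 of the 41 members. The fit was tested on simulated data. It called 65.7% of the tested genes given a log2 change of 1 and 94.9% of those given a change of 2, with 0 and 3 false calls. A gene that changed by 1 can thus go uncalled. The simulated noise was independent between genes, so the false calls do not speak to variation that many genes share. Promoter sequences are those of RefSeq on GRCm38.p6.

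Members and gene lists were chosen with earlier results of these data known. Values in every sample are given for members that passed, for the 4 highest of a class, and for all tested members of a class with fewer than 8 of them, and others are named where stated. In each pathway list, genes that passed and the most abundant gene are named. Alternatives were other pseudocounts, filters, scalings, thresholds and weights, a replicate block, each sample left out and, added after seeing the data, voom on the recovered reads. The 13 cell type marker lists are summarised at the end. Python 3.11.15, numpy 2.4.6, pandas 2.3.3 and matplotlib 3.10.9 were used.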

Additional observations from a re-analysis of the deposited data

How the results depend on the processing

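Wnt11 was called lower in all 18 alternatives, and Sfrp1 higher in the 17 that tested it. Of the 12 alternatives that kept every sample, Wnt4 was called in 9 and Sfrp2 in 8. Wnt4 was lost at an adjusted p of 0.0180 with no filter and of 0.0132 with the replicate block, and Sfrp2 at 0.0141 with no filter, 0.0116 with no intensity trend and 0.0122 with voom on the recovered reads, chosen after seeing the data (all limma). A log2 threshold of 1 also ended both calls. The count of members called lower was 1 with no filter, 5 with sample weights, 1 with that threshold of 1, and 1 to 2 with a sample left out, against 3 in the report, with 1 when any control or iPCKO 3 was left out. The count called higher was 0 when 1 RPKM was required in all 6 samples, because Sfrp1 was then not tested, 3 with sample weights, 2 at an adjusted p under 0.05, and 1 to 2 with a sample left out, the second gene being Wnt9a without control 1. Over all genes the count of 817 became 1590 with sample weights, 1313 at an adjusted p under 0.05, 411 at a threshold of 1 and 382 to 899 with a sample left out, with 382 without control 3, 414 without iPCKO 2 and 499 without iPCKO 3. Of the other pathway genes 8 were called, 13 with sample weights, 4 at a threshold of 1 and 4 to 7 with a sample left out, with 4 without control 3 and 5 without control 1. Small differences changed sign without control 3, namely Wnt5b at -0.04, Wnt2 at 0.05 and Fzd8 at -0.05, within ranges over the samples left out of -0.04 to 0.22, -0.13 to 0.05 and -0.05 to 0.16, and that of Wwtr1 changed under quantile normalization, at -0.00012, and ranged from -0.03 to 0.17 with a sample left out. The cause of the other changes was not tested.

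Samples of different groups share replicate numbers. The deviations of same-numbered samples correlated at 0.238, 0.092 and 0.022, and those of differently numbered samples at -0.298 to 0.273. The numbers were not taken as a pairing, although so few samples cannot exclude one. With the replicate block 922 genes were called, and 1 member was higher and 2 were lower. Values below 1 RPKM rest on few reads and limit what can be said of the scarce members.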

Other observations

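The marker lists give the setting of the Wnt genes. As means of log2(RPKM + 0.1), the control and mutant group means were 7.68 and 7.81 for 10 pericyte genes, of which 3 rose and 2 fell, 6.33 and 6.53 for smooth muscle genes (2 rose, 1 fell), and 3.63 and 3.75 for endothelial genes (2 rose). For the pericyte genes the median over the list differed by -0.48 while the mean differed by 0.13, and for alveolar fibroblast genes by 0.42 while the mean differed by -0.02. The fibroblast lists stood at 3.55 and 3.53 for alveolar fibroblasts (1 rose, 1 fell), 4.6 and 4.67 for adventitial fibroblasts (none passed) and 5.93 and 6.12 for myofibroblasts (2 rose, 1 fell). The summed RPKM of the myofibroblast list nevertheless was lower in mutants, at 2265 ± 325 and 1569 ± 194, opposite in direction to its mean.

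The epithelial lists stood at 4.05 and 4.28 for the alveolar genes (2 rose), 1.28 and 1.67 for the airway genes (1 rose of 3 tested) and -0.13 and 0.35 for the mesothelial genes (1 rose of 3 tested). Blood cell lists were at 2.37 and 4.04 for leukocytes, 2.06 and 5.46 for neutrophils, 0.20 and 2.14 for platelets (6 of 7 tested rose), and 7.06 and 7.20 for erythrocytes (none passed). The part of these lists in the changes of Wnt11, Wnt4, Sfrp2 and Sfrp1 was not tested.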
